A study of Mus musculus with 32 samples.

Results

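Xenobiotic metabolism is the chemical processing of foreign compounds such as smoke constituents, pollutants and drugs. The gene set examined here held 10 members, chosen by name: the cytochrome P450 genes Cyp1a1, Cyp1b1, Cyp2a5, Cyp2b10, Cyp2s1 and Cyp4b1, the flavin-containing monooxygenase genes Fmo1 and Fmo2, the electron donor Por and the heme synthesis gene Alas1. All 10 were found among the 41687 rows of a table of estimated counts per gene from mouse lung, and all 10 passed the filter on low counts in every comparison. Cytochrome P450 enzymes sit in the membrane of the endoplasmic reticulum, carry a heme and oxidise their substrates with electrons handed over by the reductase encoded by Por. Flavin-containing monooxygenases oxidise nitrogen and sulfur atoms without a heme, and ALAS1 catalyses the first and limiting step of heme synthesis. In lung, club cells of the airway lining are known for high P450 levels, and in liver several of these genes are known to be driven by the circadian clock through the transcription factors DBP, TEF and HLF.

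Lungs of adult C57b/6 mice, 6 wild type (WT) and 6 with a Bmal1 knockout (KO), were sequenced after up to 3 ways of handling ribosomal RNA. The labels give all animals as female and 8 to 18 weeks old. RiboZero libraries had ribosomal RNA pulled out, PolyA libraries kept polyadenylated RNA, and NoSelect libraries had neither step. RiboZero and PolyA had n = 6 mice per genotype, and NoSelect had n = 4 per genotype (mice 3 to 6). The 2 genotypes shared no stated treatment, transgene or Cre driver, and the kind of knockout allele and the time of day of collection were not given in the sources used here. The libraries of one mouse came from the same lung, so the preparations are not independent animals. Mouse 3 of WT and mouse 3 of KO are different animals, and likewise for every number. NoSelect material was combined from 6 library preparations, with 15 ng of input against 200 ng in RiboZero and PolyA. Differences of NoSelect from the other preparations therefore cannot be told apart from those of input and combining.

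Total counts were 11638590 to 25801192 per RiboZero library, 29924271 to 41548759 per PolyA library and 74979759 to 115059730 per NoSelect library. In NoSelect, Lars2 and a transcript of Gm42418 took 69.2% ± 1.35 (SD, n = 8) of the counts, so normalised levels are lower there for every other gene. Arntl, the gene of Bmal1, was at 34.1 to 42.6 normalised CPM (the count scaled by the effective library size) in WT and 19.1 to 23.6 in KO RiboZero libraries, and it overlapped between genotypes in PolyA (31.9 to 37.9 against 26.8 to 32.4). KO mouse 6 went against its label: it had 2 to 16 counts of Xist, the RNA made from the inactive X chromosome, against at least 13590 in every other library, and 2195 to 2967 counts of the Y-linked gene Ddx3y against 0. Its NoSelect library is also labelled liver, but its hepatocyte markers summed to 0.317 CPM, within the 0.0826 to 0.850 of the other NoSelect KO libraries. Its alveolar type 2 cell markers summed to 3956 CPM, against 2855 to 3413 in those libraries and 3318 to 3986 in NoSelect WT. KO mouse 6 was kept, and for member calls and calls of named pathway genes that are gained or lost without it, both values are given.

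KO lungs held much less Cyp2a5 RNA than WT lungs, moderately less Fmo2 and Por RNA, and more Cyp2s1 RNA. The Cyp2a5 level in KO was 21.2% (RiboZero), 23.2% (PolyA) and 19.6% (NoSelect) of that in WT. Fmo2 stood at 73.7% and 65.6% of WT in RiboZero and NoSelect, Por at 75.6% in RiboZero, and Cyp2s1 at 1.4 and 1.42 times WT in RiboZero and NoSelect. Fmo2 and Cyp2s1 did not pass the test in PolyA (edgeR adjusted p 0.0792 and 0.0966). Por did not pass it in PolyA or NoSelect (edgeR adjusted p 0.0821 and 0.0914). The other 6 members, among them the classic pollutant-induced gene Cyp1a1 and the heme gene Alas1, passed the test in 0 of the 3 preparations. A gene is called here when its p from the quasi-likelihood test of edgeR, adjusted by Benjamini-Hochberg over all rows tested, is under 0.05. Over these 6 members and 3 preparations, 3 of 18 tests had an unadjusted p under 0.05, and DESeq2 called 0 of 18.

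In RiboZero, 4 of 10 members were called, 1 higher and 3 lower in KO. Of all 16710 rows tested there, 3.46% were called, 1.84% higher and 1.63% lower. In PolyA, Cyp2a5 was the 1 member called, and it was lower, beside 4.03% of 17211 rows (1.62% higher and 2.41% lower). In NoSelect, 3 members were called, 1 higher and 2 lower, beside 2.17% of 17124 rows (1.19% higher and 0.981% lower). In absolute size, the members' log2 fold changes had medians of 0.21, 0.18 and 0.20 in RiboZero, PolyA and NoSelect, beside 0.09, 0.10 and 0.09 for all rows. By sign, 9 of 10 members pointed the same way in all 3 preparations, the exception being Cyp1a1, but the preparations share mice. The PolyA count changed with the fit: it was 4 in DESeq2 and 4 without WT mouse 2, with Fmo2, Por and Cyp2s1 added each time. Calls over all rows rose in these fits too, from 694 to 1355 of 17211 in DESeq2 and to 1066 of 17312 without WT mouse 2.

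**Figure D1:**
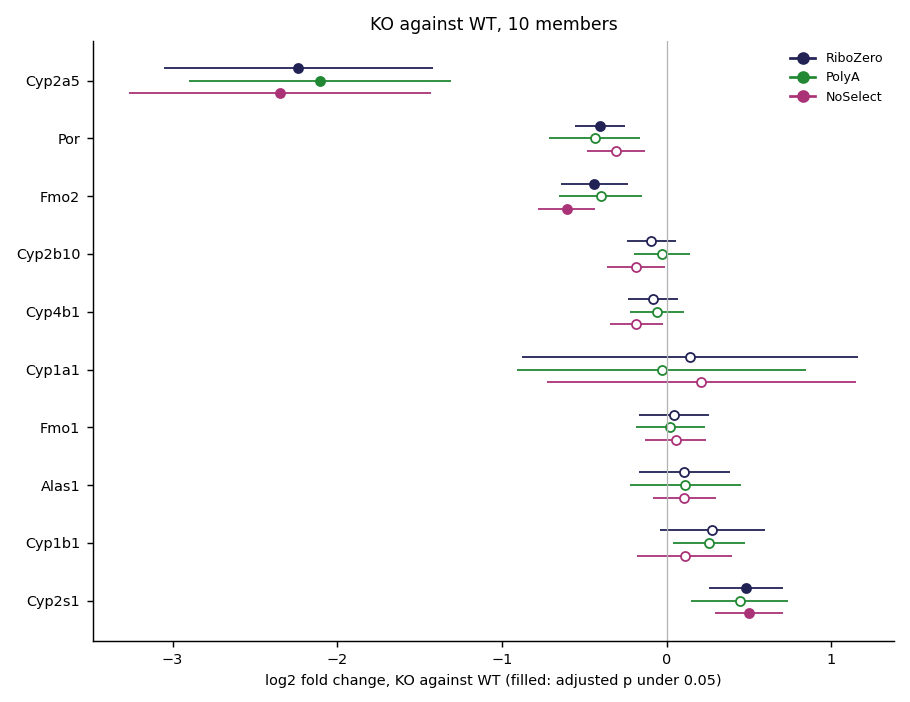
Log2 fold change of KO against WT (horizontal axis) for the 10 members (vertical axis) in RiboZero, PolyA and NoSelect, with 95% intervals from edgeR; filled points have an adjusted p under 0.05. Cyp2a5 lies between -2.35 and -2.11 in the 3 preparations, while the points of the other 9 members stay between -0.61 and 0.50.

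Cyp2a5 (ENSMUSG00000005547, chr7:26835305-26843548, plus strand, GRCm38) encodes the mouse coumarin hydroxylase, the counterpart of a human nicotine-oxidising enzyme. In RiboZero its WT level had a lowest value of 11.9, a median of 14.4 and a highest of 42.2 normalised CPM, against 2.33, 4.08 and 6.85 in KO. The 6 KO libraries all lay below the 6 WT libraries. Within WT, mice 2 (42.2) and 3 (36.2) stood above the other 4, which ran from 11.9 to 15.1. In PolyA the WT values were 30.9, 36.4 and 117 (lowest, median, highest) and the KO values 8.72, 13.4 and 18.5, again without overlap and with mice 2 (117) and 3 (88.6) highest in WT. In NoSelect the WT mice 3 to 6 had 8.63, 3.77, 3.0 and 3.03, and the KO mice 3 to 6 had 0.534, 1.06, 0.826 and 1.17. Mouse 3 was again the highest WT animal, and the genotypes did not overlap.

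The log2 fold change of Cyp2a5 was -2.24 (SE 0.378, edgeR adjusted p 0.00602) in RiboZero, -2.11 (SE 0.368, adjusted p 0.00693) in PolyA and -2.35 (SE 0.402, adjusted p 0.0251) in NoSelect. With WT mice 2 and 3 left out, a choice made after seeing their values, it was -1.53 (adjusted p 0.0073) in RiboZero and -1.35 (adjusted p 0.00261) in PolyA. In NoSelect it was -1.85 (adjusted p 0.0159) without WT mouse 3. The NoSelect call was lost without WT 4, KO 3, KO 4 or KO 5, with adjusted p 0.0555 to 0.0861. Of the 31-base words of the Cyp2a5 transcripts in GENCODE M21, 54.6% also occur in other genes, 44.9% in Cyp2a4, so reads of this pair can be assigned to either gene. With Cyp2a4 and Cyp2a5 added up, the log2 fold change was -2.23, -2.11 and -2.34.

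Stretches ahead of a RefSeq start of Cyp2a5, Fmo2 and Por are printed because these 3 members were the ones called lower. They come from RefSeq promoter windows of GRCm38.p6, which run from 250 bases before to 50 after a gene start. Each window is shown up to its RefSeq start, or up to the first base that a GENCODE M21 exon of the gene covers where that comes earlier. The RefSeq start of Por lies inside the longer GENCODE span of the gene, so its stretch is downstream of the earliest annotated start. By symbol, 9 of the 10 members matched a window, with 11 windows in all, and Fmo1 did not.
Cyp2a5, chr7:26835089-26835304, plus strand: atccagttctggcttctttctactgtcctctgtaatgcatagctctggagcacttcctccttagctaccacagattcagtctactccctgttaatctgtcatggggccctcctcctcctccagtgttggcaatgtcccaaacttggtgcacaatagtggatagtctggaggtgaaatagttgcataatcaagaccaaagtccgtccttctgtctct
Fmo2, chr1:162898759-162899008, minus strand: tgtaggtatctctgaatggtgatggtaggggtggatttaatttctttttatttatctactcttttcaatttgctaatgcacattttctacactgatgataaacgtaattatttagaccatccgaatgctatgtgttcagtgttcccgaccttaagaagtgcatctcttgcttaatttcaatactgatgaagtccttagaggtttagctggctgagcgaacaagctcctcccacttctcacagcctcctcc
Por, chr5:135688895-135689035, plus strand: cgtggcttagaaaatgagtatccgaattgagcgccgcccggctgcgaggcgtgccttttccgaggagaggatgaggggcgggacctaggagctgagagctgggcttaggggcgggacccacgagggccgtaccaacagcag

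These windows were searched on both strands for letters that clock and xenobiotic factors are known to bind: CACGTG (the E-box of BMAL1 and CLOCK), TTANGTAA (the D-box of DBP, TEF and HLF), TNGCGTG (the site of the aryl hydrocarbon receptor) and AGGTCA (the core of ROR and REV-ERB sites). Of 32851 RefSeq windows of this length, 7.15%, 2.32%, 5.07% and 16.3% hold them, respectively. Among the 11 member windows, only AGGTCA was found, once in Cyp2a5 and once in Fmo2. The match in Cyp2a5 starts at position 30 after the gene start and reads on the minus strand, so that it appears as TGACCT here. The match in Fmo2 starts 9 bases before the second, downstream start that RefSeq gives. Both are shown in 30 bases, with the matching letters in capitals.
Cyp2a5, chr7:26835356-26835385, plus strand: ccgccaccatgcTGACCTcaggactcctcc
Fmo2, chr1:162898485-162898514, minus strand: cgtttacaatgaAGGTCAtatgaccagaca
These are matches of letters and not measured binding sites. The absence of the other letters covers these windows alone.

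Fmo2 (ENSMUSG00000040170, chr1:162874317-162898726, minus strand) encodes the flavin-containing monooxygenase known as the main form in the lung of most mammals. Its RiboZero levels were 746, 926 and 1056 normalised CPM in WT (lowest, median, highest) and 570, 662 and 838 in KO. The groups overlapped through KO mouse 2 (838), which stood above WT mouse 2 (746). In PolyA the values were 647, 878 and 1055 in WT and 589, 647 and 761 in KO, and WT mouse 2 (647) was again the lowest of its group. In NoSelect, WT mice 3 to 6 had 231, 277, 254 and 257, and KO mice 3 to 6 had 176, 147, 176 and 169. All 4 KO libraries lay below all 4 WT libraries in that preparation.

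Fmo2 had a log2 fold change of -0.44 (SE 0.0945, edgeR adjusted p 0.0221) in RiboZero and -0.61 (SE 0.0755, adjusted p 0.00676) in NoSelect. The PolyA value of -0.40 (SE 0.116) had an adjusted p of 0.0792. It was -0.47 with an adjusted p of 0.0184 without WT mouse 2, and the RiboZero adjusted p was 0.0533 without WT mouse 5. Its neighbour Fmo1 (ENSMUSG00000040181, chr1:162829561-162866610, minus strand) begins 7706 bases away and encodes a related enzyme. Fmo1 had log2 fold changes of 0.04, 0.02 and 0.06 in RiboZero, PolyA and NoSelect, with 95% intervals of -0.17 to 0.26, -0.18 to 0.23 and -0.13 to 0.24. These intervals lie above the Fmo2 value in each preparation, but the difference between the genes was not tested.

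Por (ENSMUSG00000005514, chr5:135670033-135735326, plus strand) encodes the reductase on which the microsomal P450 enzymes depend for electrons. In RiboZero its WT values were 190.5, 215 and 270.3 normalised CPM (lowest, median, highest) and its KO values 159, 167 and 177, and no KO library reached a WT library. In PolyA they were 276, 337 and 524 in WT and 232, 268 and 298 in KO, and the groups overlapped between WT mouse 6 (276) and KO mice 4 and 5 (298 and 282). In NoSelect, WT mice 3 to 6 had 66.5, 65.0, 70.6 and 59.6 and KO mice 3 to 6 had 46.4, 54.4, 51.9 and 58.5, without overlap. The log2 fold change was -0.40 (SE 0.0703, edgeR adjusted p 0.00694) in RiboZero, -0.44 (SE 0.128, adjusted p 0.0821) in PolyA and -0.31 (SE 0.0769, adjusted p 0.0914) in NoSelect. The RiboZero call held in all 12 fits that left out 1 library. The NoSelect value passed in DESeq2 (adjusted p 0.00605) and, without KO mouse 6, in edgeR (-0.36, adjusted p 0.0498). The PolyA value was -0.30 (adjusted p 0.0458) without WT mouse 2 and -0.50 (adjusted p 0.0412) without WT mouse 6.

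Cyp2s1 (ENSMUSG00000040703, chr7:25802475-25816913, minus strand) encodes a P450 known from airway and other lining epithelia. Its RiboZero levels were 94.0, 101 and 138 normalised CPM in WT (lowest, median, highest) and 124, 146 and 172 in KO. The groups overlapped through WT mouse 2 (138), and the other 5 WT libraries were at or below 107. PolyA had 294, 333 and 541 in WT and 430, 496 and 571 in KO, where WT mouse 2 (541) was again the one WT library inside the KO range. In NoSelect, WT mice 3 to 6 had 47.7, 40.4, 41.6 and 35.6 and KO mice 3 to 6 had 53.4, 62.3, 55.7 and 62.4, without overlap. The log2 fold change was 0.48 (SE 0.103, edgeR adjusted p 0.0222) in RiboZero, 0.44 (SE 0.135, adjusted p 0.0966) in PolyA and 0.50 (SE 0.0906, adjusted p 0.0297) in NoSelect. Without WT mouse 2 the PolyA value was 0.60 (adjusted p 0.00174). The RiboZero adjusted p was 0.052 to 0.0555 without WT 4, WT 5, WT 6 or KO 2. The NoSelect adjusted p was 0.0561 to 0.101 without WT 4, WT 5, WT 6, KO 4, KO 5 or KO 6, with a log2 fold change of 0.47 (adjusted p 0.0561) without KO 6.

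Markers of ciliated cells, another airway cell type, pointed the same way as Cyp2s1. Their 6 genes (Foxj1, Tekt1, Dnah5, Ccdc39, Tmem212 and Cfap126) were higher in KO by sign in 6 of 6 cases in each preparation, with median log2 fold changes of 0.36, 0.36 and 0.28. By edgeR 0 of the 6 were called in each, with 4, 5 and 3 at an unadjusted p under 0.05, while DESeq2 called 3, 1 and 0. Without WT mouse 2, edgeR called 2 in RiboZero and 4 in PolyA. Their summed level ran from 294 to 467 normalised CPM in WT and 324 to 522 in KO RiboZero libraries, 386 to 747 and 566 to 776 in PolyA, and 74.2 to 105 and 83.1 to 122 in NoSelect. WT mouse 2 held the highest WT sum in RiboZero (467) and in PolyA (747), as it did for Cyp2s1. It also held the highest WT sum in both of these preparations for club cell, smooth muscle cell, cardiomyocyte and adipocyte markers and the lowest for alveolar type 1, alveolar type 2, endothelial and alveolar macrophage markers, 5 and 4 of 12 lists. In PolyA its cardiomyocyte sum was 1127 against 250 to 609 in the other WT mice, and its smooth muscle sum 1732 against 838.5 to 1076. None of the 6 markers was at 0. For the 6 club cell markers, 5 were higher by sign, and the medians were 0.38, 0.34 and 0.41. By edgeR 0 were called, with 2, 1 and 2 at an unadjusted p under 0.05, DESeq2 called 0, 0 and 1, and without WT mouse 2 edgeR called 0 in RiboZero and 2 in PolyA. Their sums ran from 11570 to 19180 in WT and 15000 to 19840 in KO RiboZero libraries, 41560 to 76600 and 47560 to 69320 in PolyA, and 3554 to 4756 and 4709 to 5813 in NoSelect. Other lists also pointed up. Endothelial markers were higher by sign in 5, 6 and 6 of 6 in RiboZero, PolyA and NoSelect (medians 0.109, 0.125 and 0.123). Adipocyte markers were higher in 5, 4 and 4 of 5 tested (medians 0.153, 0.122 and 0.339). Alveolar type 1 markers were higher in 5, 3 and 6 of 6, and Ager of that list was called higher in RiboZero. The part of these shifts in the Cyp2s1 result was not tested. In whole lung, more or fewer cells of a type cannot be told apart from more or less RNA per cell.

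Markers of alveolar type 2 cells, which make surfactant, pointed down like Cyp2a5, Fmo2 and Por. Of the 6 (Sftpc, Sftpb, Sftpa1, Lamp3, Abca3 and Slc34a2), 5 were lower in KO by sign in each preparation, with median log2 fold changes of -0.10, -0.27 and -0.13. The surfactant protein gene Sftpa1 was the 1 called, lower in all 3 (-0.49, -0.66 and -0.57, edgeR adjusted p 0.00776, 0.00457 and 0.0178). Its NoSelect call was lost without WT 4, WT 5, KO 4 or KO 5 (adjusted p up to 0.0666). The summed level of the 6 ran from 11340 to 14600 normalised CPM in WT and 10110 to 14110 in KO RiboZero libraries, 18380 to 24960 and 16150 to 22870 in PolyA, and 3318 to 3986 and 2855 to 3956 in NoSelect, and 0 of the 6 genes were at 0. Other lists also pointed down. Alveolar macrophage markers were lower by sign in 4, 5 and 4 of 6 in RiboZero, PolyA and NoSelect (medians -0.08, -0.15 and -0.14). Of these, Mrc1 was called lower in PolyA. Erythroid markers were lower in 6 of 6 in RiboZero and PolyA (medians -0.16 and -0.38) but higher in 5 of 6 in NoSelect. Smooth muscle markers were lower in 4, 5 and 3 of 6. Fibroblast markers were mixed, lower in 2, 3 and 2 of 6, with Dcn called lower in PolyA and Col1a1 called higher in NoSelect. Cardiomyocyte markers were lower in 3 of 6, 4 of 7 and 3 of 6 (medians -0.04, -0.24 and 0.11). Over all rows the median absolute log2 fold change was 0.09, 0.10 and 0.09. The part of these shifts in the results for the 3 members called lower was not tested.

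For a count of members whose genotypes do not overlap, the background share of rows was 2.89% (RiboZero), 3.21% (PolyA) and 9.51% (NoSelect). Cyp2a5 and Por met this in RiboZero, Cyp2a5 in PolyA, and Cyp2a5, Por, Fmo2 and Cyp2s1 in NoSelect. With 4 mice per genotype the NoSelect background is higher, and the separation there says less.

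**Figure D2:**
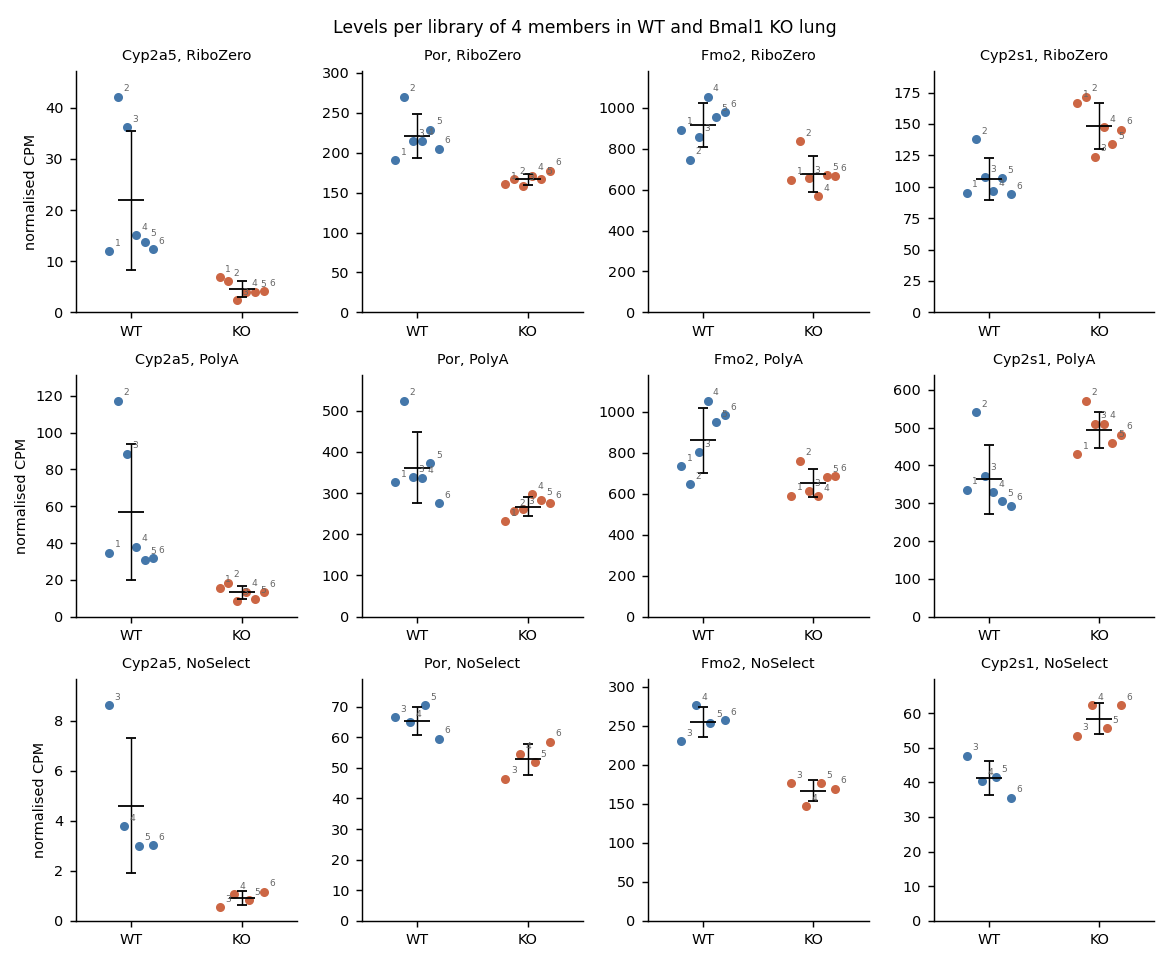
Normalised CPM per library (vertical axes, linear, from 0) of Cyp2a5, Por, Fmo2 and Cyp2s1 in WT and KO lung in the 3 preparations; each point is a mouse with its number, and bars give the mean and SD. KO points of Cyp2a5 lie below all WT points in each preparation, and WT mouse 2 is the highest WT point of Por and Cyp2s1 in RiboZero and PolyA.

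The pair of CYP1 enzymes, known targets of the aryl hydrocarbon receptor, did not pass the test. Cyp1a1 (ENSMUSG00000032315, chr9:57687928-57703824, plus strand) varied more between mice of one genotype than between genotypes. Its RiboZero levels in WT mice 1 to 6 were 4.52, 4.0, 5.25, 16.5, 10.4 and 7.78 normalised CPM, and in KO mice 1 to 6 they were 4.87, 2.82, 4.29, 18.1, 8.70 and 14.5. Mouse 4 was the highest of its genotype in all 3 preparations, with 26.0 and 24.5 in PolyA and 4.09 and 4.60 in NoSelect for WT and KO. The highest mouse exceeded the lowest by 2.50 to 6.43 times within a genotype and preparation. The log2 fold change was 0.14 (95% interval -0.88 to 1.16), -0.03 (-0.91 to 0.85) and 0.21 (-0.73 to 1.15). The upper bounds in RiboZero and NoSelect lie above a log2 of 1, so a rise of that size is not excluded there.
Cyp1b1 (ENSMUSG00000024087, chr17:79701537-79715061, minus strand) oxidises polycyclic hydrocarbons and steroids. Its level was 10.5 to 15.7 in WT and 11.5 to 20.4 in KO RiboZero libraries, 14.5 to 18.9 and 16.5 to 23.5 in PolyA, and 3.40 to 4.58 and 3.63 to 4.96 in NoSelect. The log2 fold changes were 0.28 (SE 0.147, edgeR adjusted p 0.389), 0.26 (SE 0.101, adjusted p 0.195) and 0.11 (SE 0.127, adjusted p 0.746).

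Cyp2b10 (ENSMUSG00000030483, chr7:25897620-25926624, plus strand) is the best known target of the constitutive androstane receptor in mouse liver. It was at 220.4 to 301 normalised CPM in WT and 227 to 254 in KO RiboZero libraries, 218 to 285 and 225 to 296 in PolyA, and 67.4 to 85.9 and 63.2 to 73.6 in NoSelect. Its log2 fold changes were -0.09 (95% interval -0.24 to 0.06), -0.03 (-0.20 to 0.14) and -0.19 (-0.36 to -0.01), the last with an edgeR adjusted p of 0.298. Of its 31-base words, 19.4% occur in other genes, 13.1% in Cyp2b13. Cyp4b1 (ENSMUSG00000028713, chr4:115624725-115647723, minus strand), a lung P450 known for activating the toxin ipomeanol, was at 469 to 554 in WT and 413 to 564 in KO RiboZero libraries. It was at 643 to 805 and 589 to 789 in PolyA and at 118 to 138 and 105 to 122 in NoSelect. Its log2 fold changes were -0.08 (95% interval -0.23 to 0.07), -0.06 (-0.22 to 0.10) and -0.18 (-0.34 to -0.02), the last with an adjusted p of 0.255.

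Alas1 (ENSMUSG00000032786, chr9:106233455-106248654, minus strand) was at 180 to 347 normalised CPM in WT and 266 to 351 in KO RiboZero libraries, 348 to 787 and 444 to 617 in PolyA, and 67.7 to 73.8 and 70.5 to 90.9 in NoSelect. Its log2 fold change was 0.11 in each preparation, with 95% intervals of -0.17 to 0.38, -0.23 to 0.45 and -0.08 to 0.30. Fmo1 was at 199.9 to 298 in WT and 196 to 268 in KO RiboZero libraries, 333 to 472 and 311 to 421 in PolyA, and 58.6 to 66.1 and 55.9 to 74.4 in NoSelect. For Cyp1b1, Cyp2b10, Cyp4b1, Alas1 and Fmo1 the intervals in each preparation leave out an absolute log2 fold change of 1.

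**Figure D3:**
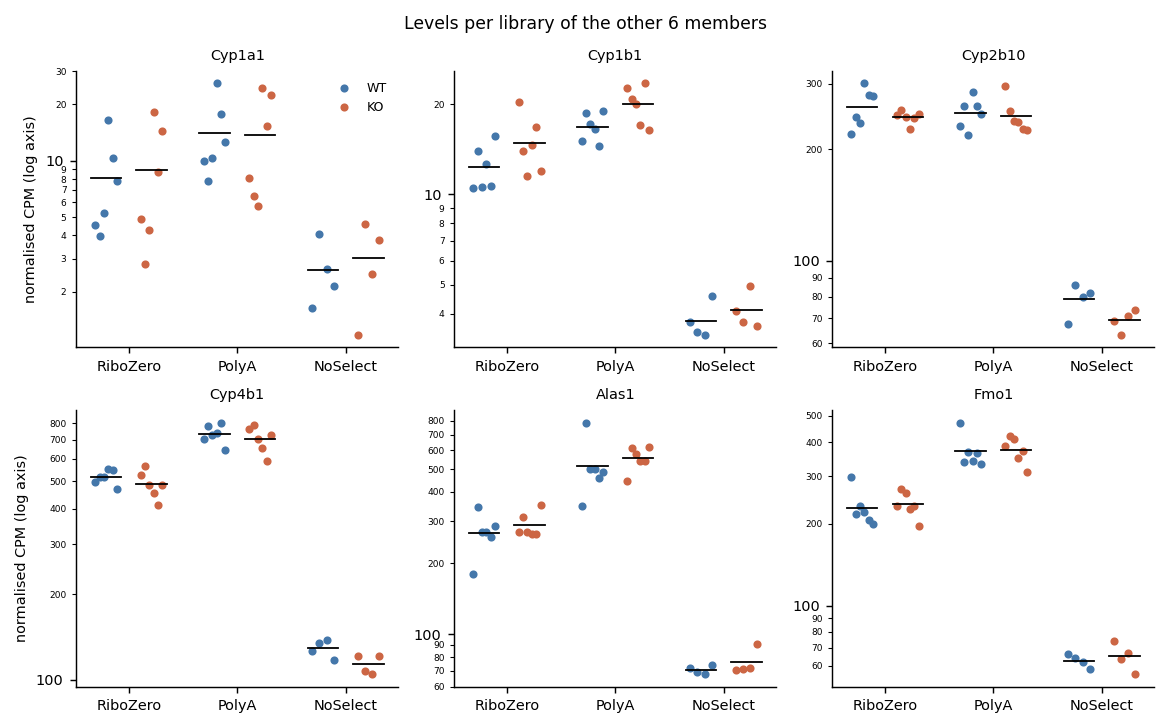
Normalised CPM per library (vertical axes, log scale) of Cyp1a1, Cyp1b1, Cyp2b10, Cyp4b1, Alas1 and Fmo1 in WT and KO in the 3 preparations; each point is a library and lines are means. WT and KO points overlap in every panel and preparation, and Cyp1a1 spreads most between mice, from 2.82 to 18.1 in KO RiboZero libraries.

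Levels between genes were compared per kilobase of the longest coding transcript in GENCODE M21. In WT RiboZero libraries Cyp4b1 was highest, at 273 ± 16.7 CPM per kb (SD, n = 6), followed by Fmo2 at 225 ± 26.4, Cyp2b10 at 136 ± 16.2, Fmo1 at 96.1 ± 14.8, Por at 83.7 ± 10.4 and Alas1 at 79.1 ± 15.8. Cyp2s1 followed at 33.6 ± 5.25, Cyp2a5 at 10.9 ± 6.73, Cyp1a1 at 3.0 ± 1.77 and Cyp1b1 at 2.41 ± 0.421. Neighbours whose libraries did not overlap were Fmo2 and Cyp2b10, Alas1 and Cyp2s1, and Cyp2s1 and Cyp2a5, and the others overlapped with the next. Cyp4b1 and Fmo2 were the top pair and Cyp2a5, Cyp1a1 and Cyp1b1 the last in all 3 preparations, also with the length of all exons joined. The middle of the order changed with the preparation and with the length used.

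The KO effect was then compared between preparations with an interaction of genotype and preparation. This fit did not pair the libraries of one mouse, so spread between mice enters its intervals and p-values. For the members, the difference of the log2 fold changes lay between -0.15 and 0.15 for PolyA against RiboZero, -0.27 and 0.22 for PolyA against NoSelect, and -0.10 and 0.17 for RiboZero against NoSelect. In edgeR 0 members were called in each of the 3 tests, and 0 had an unadjusted p under 0.05. DESeq2 called 0 members too. Over all rows 0.0% were called in each, with 331, 412 and 244 rows at an unadjusted p under 0.05, and DESeq2 called 11, 13 and 9. Fmo2, Por and Cyp2s1 were called in RiboZero but not in PolyA. Their 95% intervals of the difference for PolyA against RiboZero were -0.27 to 0.39, -0.32 to 0.30 and -0.38 to 0.35. These intervals hold 0, so differing calls across preparations are not shown to be differing effects. For Cyp2a5, called in each preparation, the interval was wide, from -0.97 to 1.27. With the mouse as a block, 0 members were called, and 2 had an unadjusted p under 0.05 for PolyA against NoSelect, the lowest being Cyp2a5 at 0.0222. Over all rows, the block gave 940, 1468 and 696 at an unadjusted p under 0.05, and 1, 0 and 1 called. The members' differences then lay between -0.14 and 0.18, -0.21 and 0.26, and -0.08 and 0.05.

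Next, the preparations themselves were compared over both genotypes, and here the log2 fold change had to reach 1 in either direction for a call. Cyp2s1 and Cyp2a5 gave more counts in PolyA than in RiboZero, and Cyp2a5 more in PolyA than in NoSelect. Cyp2s1 was at 381 ± 88.7 CPM in PolyA and 143 ± 30.6 in RiboZero (SD, n = 12 each), with a log2 fold change of 1.42 (SE 0.0877, edgeR adjusted p 1.27e-13). Cyp2a5 was at 30.9 ± 29.4 and 14.9 ± 14.5, with 1.08 (SE 0.266, adjusted p 0.000656). Both were higher in PolyA in 12 of 12 mice. These 2 of 10 members, both higher in PolyA, stand beside 23.6% of rows called (7.0% higher and 16.6% lower).

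Below the fold required for a call, Alas1 (0.60), Por (0.36), Fmo1 (0.34) and Cyp4b1 (0.18) had higher values in PolyA than in RiboZero in 12 of 12 mice, and Fmo2 (-0.40) and Cyp2b10 (-0.36) lower values in 12 of 12, all with an edgeR adjusted p of at most 0.00275. For Cyp1a1 (0.38) the adjusted p was 0.283, and with the mouse as a block it was 5.18e-06 at a log2 fold change of 0.43. Cyp1a1 was higher in PolyA in 12 of 12 mice.
Against NoSelect, Cyp2a5 was the 1 member called in PolyA, at 1.58 (SE 0.299, edgeR adjusted p 6.61e-05), beside 25.1% of rows (10.0% higher and 15.1% lower). Comparisons with NoSelect set 12 libraries against 8 without pairing, so mice 1 and 2 enter on 1 side alone. Over the alternative fits the Cyp2a5 value ran from 1.33 to 1.64, and Cyp2a5 was higher in PolyA in 8 of 8 shared mice. Cyp2s1 had 0.97 (SE 0.0943, adjusted p 6.81e-09), just under the required fold. Between RiboZero and NoSelect 0 members were called, beside 4.3% of rows (1.74% higher and 2.56% lower in RiboZero). There Cyp2s1 was lower in RiboZero in 8 of 8 mice (-0.48, SE 0.0745, adjusted p 2.09e-05) and Cyp4b1 higher in 8 of 8 (0.21, SE 0.0538, adjusted p 0.0028). DESeq2 called 0 members in that comparison.

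**Figure D4:**
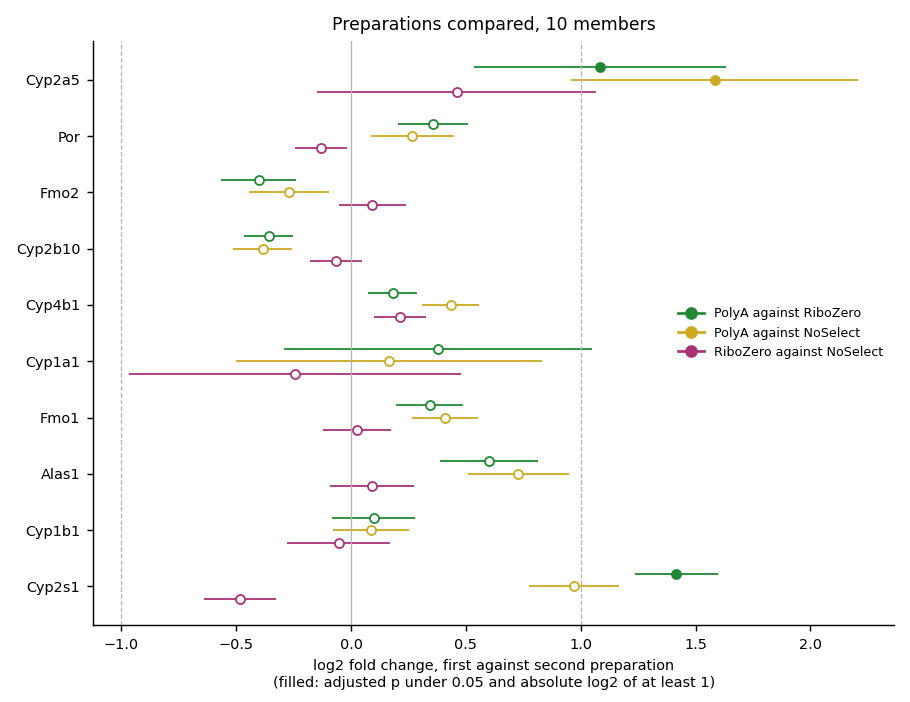
Log2 fold change between preparations (horizontal axis) for the 10 members (vertical axis) with 95% intervals from edgeR; dashed lines mark an absolute log2 of 1, and filled points were called. Cyp2s1 and Cyp2a5 lie right of 1 for PolyA against RiboZero (1.42 and 1.08), and Fmo2 and Cyp2b10 lie left of 0 in both comparisons of PolyA.

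Spread between mice was shared by the preparations. In 15 of 20 cases (10 members in 2 genotypes) the highest mouse in RiboZero was also the highest in PolyA, and in 10 of 20 the lowest was the same. The coefficient of variation within a group ran from 3.83% to 69.6%. Rows that varied most like a called member were sought by Pearson's r of log2 CPM over the 12 RiboZero and over the 12 PolyA libraries, among 14154 rows, for the 3 members called in at least 2 preparations. Both genotypes enter these r, so a gene that differs between them scores high, and r within genotypes is given as well.
Cyp2s1 varied most like Rsph10b (r 0.968 in RiboZero and 0.975 in PolyA), Dynlrb2 (0.961 and 0.976) and Fam161a (0.978 and 0.960), genes known from cilia, and within genotypes these r were 0.921 to 0.961. Fmo2 varied most like Gm4956 (0.953 and 0.944), the transporter gene Abca8b (0.906 and 0.921) and the membrane glycoprotein gene Gpm6b (0.857 and 0.910), with 0.70 to 0.924 within genotypes. For Cyp2a5 the rows were Aebp1 (0.922 and 0.943), the estrogen receptor gene Esr1 (0.905 and 0.921) and Pdzk1ip1 (0.893 and 0.905), with 0.610 to 0.813 within genotypes. The r are descriptions, since the best of many rows were picked.

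Around the members, 94 other genes of the pathway were listed by role, and 6 of them were called in KO against WT in all 3 preparations, 3 in 2 and 3 in 1. Some of the 94 did not pass the filter on low counts. The share of all rows called in 3, 2 or 1 preparations was not counted, and the preparations share mice, so these counts have no background here. Enzymes acting on carbonyls, aldehydes and esters held more of the called genes than any other list. Of 11 such genes, 1 was higher and 4 were lower in RiboZero, 1 and 3 in PolyA, and 1 and 4 in NoSelect, with medians over the list of -0.10, -0.21 and -0.07. Over all rows, 1.84% were called higher and 1.63% lower in RiboZero, 1.62% and 2.41% in PolyA, and 1.19% and 0.981% in NoSelect, and the counts of all lists below stand beside these same shares.
Aldh3a1, an aldehyde dehydrogenase, rose from 22.1 ± 4.19 to 47.4 ± 11.5 normalised CPM in RiboZero (SD, n = 6 each), with log2 fold changes of 1.1, 1.13 and 1.09 in RiboZero, PolyA and NoSelect (edgeR adjusted p 0.0034, 0.00101 and 0.0454). Adh1, an alcohol dehydrogenase, fell from 76.3 ± 8.84 to 44.0 ± 8.38 in RiboZero, with log2 fold changes of -0.80, -0.84 and -0.73 (adjusted p 0.00284, 0.00467 and 0.0178). The carboxylesterase gene Ces1g fell from 4.08 ± 0.743 to 1.41 ± 0.563, with -1.55, -1.74 and -1.14 (adjusted p 0.00391, 0.00206 and 0.0186). Aldh2, which oxidises acetaldehyde, had -0.28, -0.27 and -0.28 and was called in all 3, and Ces1d had -0.33, -0.32 and -0.34 and was called in RiboZero and NoSelect, with an adjusted p of 0.0743 in PolyA. In RiboZero and PolyA, the calls of Adh1, Aldh2, Aldh3a1 and Ces1g held in all 12 fits that left out 1 library, and the RiboZero call of Ces1d did so too. In NoSelect, the adjusted p reached 0.0642 for Adh1 (lost without WT 4 or WT 5), 0.0692 for Aldh2 (WT 4, WT 5, KO 4 or KO 5), 0.0659 for Ces1d (WT 4, WT 5 or KO 5) and 0.0615 for Ces1g (WT 4, WT 5 or KO 4). Aldh3a1 stayed under 0.05 there in 1 of 8 such fits, the one without KO 3, with a log2 fold change of 0.88 to 1.23, the lowest being without KO 6 (adjusted p 0.0511). The carboxylesterase and glutathione transferase genes have close paralogs, and how reads shared between them were split was not tested.

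Among 20 tested conjugating enzymes, 1 was called higher and 2 lower in RiboZero, and 2 lower in PolyA and in NoSelect. Gsta3, a glutathione transferase, fell from 89.4 ± 8.13 to 46.3 ± 9.05 normalised CPM in RiboZero, with log2 fold changes of -0.95, -0.72 and -1.07 (edgeR adjusted p 0.000548, 0.00667 and 0.00459). The gene called higher was Gstm2, another glutathione transferase (0.20, adjusted p 0.0377), and its call held in 2 of 12 fits without 1 library, those without WT 2 or KO 3. Without KO 6 it had 0.20 and an adjusted p of 0.0573. Gstt1 had -0.36, -0.34 and -0.32 and was called in all 3, though in NoSelect it was lost without WT 3, WT 4, WT 5, KO 3 or KO 5 (adjusted p up to 0.0887). Each Gsta3 call held in every fit without 1 library. Of 16 other P450 and flavin monooxygenase genes tested, Cyp3a13 alone was called, lower in RiboZero (-1.12, adjusted p 0.0124) and PolyA (-1.04, adjusted p 0.00509), with -0.97 and an adjusted p of 0.0767 in NoSelect. The club cell enzyme gene Cyp2f2 had 0.15, 0.09 and 0.21 and was not called.

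Heme synthesis and breakdown genes gave 0 calls of 13 in each preparation, with 0, 1 and 1 at an unadjusted p under 0.05 and 0 by DESeq2. With 3.46%, 4.03% and 2.17% of all rows called, a list of this size with 0 calls is near the background. In it, the heme oxygenase gene Hmox1 had log2 fold changes of -0.09, -0.16 and -0.24 (edgeR adjusted p 0.756, 0.424 and 0.501). The aryl hydrocarbon receptor gene Ahr had 0.12, 0.17 and 0.19 and was not called. Its repressor Ahrr passed the filter in PolyA alone (0.12, adjusted p 0.842), and the constitutive androstane receptor gene Nr1i3 passed it in none of the KO comparisons. Of the clock output factors, Tef rose in RiboZero (0.35, adjusted p 0.0206) and NoSelect (0.38, adjusted p 0.0391). Its call was lost without WT 4 or KO 2 in RiboZero (adjusted p up to 0.053) and without any NoSelect library but WT 3 (up to 0.116, and 0.36 with an adjusted p of 0.0665 without KO 6), and in PolyA it was called without WT 2 (0.00544). Dbp had 0.43, -0.41 and 0.62 and Hlf 0.25, 0.12 and 0.28, uncalled. Of 7 electron transfer partners 1 was called, Pgrmc1 in RiboZero (0.29, edgeR adjusted p 0.0221, up to 0.0541 without WT 4, WT 5 or KO 2). Among 8 drug transporters, Abcb1b was called in PolyA (-0.56, adjusted p 0.044), a call that held in 2 of 12 fits without 1 library, those without KO 1 or KO 2. Without KO 6 it had -0.50 and an adjusted p of 0.0833.

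**Figure D5:**
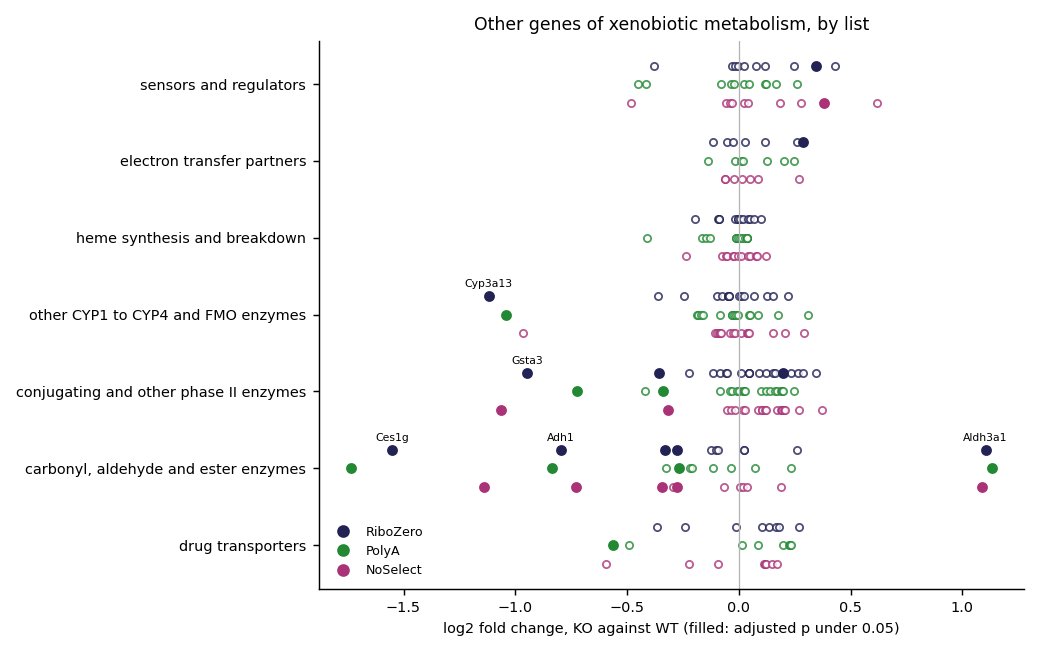
Log2 fold change of KO against WT (horizontal axis) of the other genes tested, in 7 lists (vertical axis) and 3 preparations; each point is a gene, and filled points have an edgeR adjusted p under 0.05. The largest called values belong to Ces1g, Cyp3a13, Gsta3 and Adh1 on the lower side and to Aldh3a1 on the higher side.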

How the data were processed

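Whole lung RNA of WT and Bmal1 KO mice was sequenced as 32 libraries with stranded kits and adapters that carry molecular identifiers, per the labels' protocols. The deposited values are estimated counts, 1 per gene and library, which the authors made with Salmon 1.4.0, UMI-tools 1.1.1 and GRCm38, per the submitters' processing notes. The order of these steps was not given in the sources used here. Of the values, 12.81% were not whole, and all were rounded before testing.

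Counts were scaled by TMM, filtered by filterByExpr and tested in edgeR 4.0.16 (R 4.3.3) by the quasi-likelihood test, each preparation by itself for genotype and each pair of preparations with genotype as covariate. DESeq2 1.42.0 was an alternative, beside other scalings and filters, blocks, a joint fit and leaving out libraries. The scripts were tested on simulated data first. Intervals are 95%. CPM are counts over the TMM-scaled library size.

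All 10 members are named. Of the other pathway genes, those called in at least 2 preparations are named, and Ahr, Ahrr, Nr1i3, Dbp, Tef, Hlf, Cyp2f2 and Hmox1 whatever their values. Pgrmc1, Abcb1b, Gstm2 and the markers Sftpa1, Ager, Mrc1, Dcn and Col1a1 were named after their values were seen. The members, lists and tests were chosen with earlier results of these data known. Rows most like a member needed a symbol and a mean of at least 1 CPM.

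Libraries of one mouse in different preparations deviated from their group means together (r 0.498 to 0.789), and the shared number in the labels names that mouse. Replicate libraries differed by more than counting noise (chi-square per degree of freedom 6.67 to 65.9 over 72 pairs), so none was treated as 1 library deposited more than once. That comparison says nothing of whether samples are separate animals. The labels name separate mice, and p-values cover the spread between these samples.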

Additional observations from a re-analysis of the deposited data

Results flagged for a closer look

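Among 60 groups of 4 to 6 libraries (10 members in 2 genotypes and 3 preparations), 7 held a library whose distance to its nearest neighbour was large for the range of the group by Dixon's 95% criterion, where chance gives about 1 in 20. The preparations share mice, so the 60 groups are not independent and the count of 7 cannot be weighed against that rate. All values are normalised CPM, and no explanation was tested. For Cyp2s1, WT mouse 2 stood above the other WT mice in RiboZero (138.0) and in PolyA (541.5), and it did so for Alas1 in PolyA (787.1). For Fmo1, WT mouse 1 stood apart in RiboZero (297.9) and in PolyA (472.4). For Cyp2a5 in NoSelect, WT mouse 3 was at 8.629. For Alas1 in NoSelect, KO mouse 6 was at 90.86.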

How the results depend on the processing

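The count of members called in KO against WT moved most with the setting. From 1 in PolyA it went to 4 in DESeq2, 2 with the replicate number as a block, 3 with mice 3 to 6 alone, 3 without WT mice 2 and 3, and 4 in one fit of all 32 libraries, and from 1 to 4 when single libraries were left out. From 4 in RiboZero it ranged from 2 (without WT mouse 5) to 4 without single libraries. From 3 in NoSelect it fell to 0 with the replicate block, and ranged from 1 (without WT 4, KO 4 or KO 5) to 3 without single libraries. For PolyA against NoSelect the count was 2 with no filter, where Cyp2s1 reached 1.03. The cause was not tested. Leaving out WT mice 2 and 3, and adding up Cyp2a4 and Cyp2a5, were chosen after seeing the data.

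The sources used here do not state a link between WT and KO mice of equal number. Correlations between such libraries ran from -0.162 to 0.262. A library matched its own number best in 2 of 12, 3 of 12 and 3 of 8 cases in RiboZero, PolyA and NoSelect. These values cannot exclude a link. With the replicate number as a block, Fmo2 was lost in RiboZero (edgeR adjusted p 0.11) and Cyp2s1 was added in PolyA (0.0263). In NoSelect, Cyp2a5 (0.124), Cyp2s1 (0.138) and Fmo2 (0.0722) were lost. The mouse as a block changed no call between preparations.

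Signs turned for Cyp1a1, Cyp2b10 and Fmo1, none of them called in any fit of these comparisons. Cyp1a1 was at -0.141 in RiboZero without WT mice 2 and 3, at 0.03 with mice 3 to 6 and 0.003 with all 32 libraries in PolyA, and ranged without single libraries from -0.199 to 0.482, -0.272 to 0.241 and -0.06 to 0.504 in RiboZero, PolyA and NoSelect. Cyp2b10 in PolyA was at 0.003 with all 32 libraries and ranged from -0.083 to 0.018. Fmo1 in PolyA was at -0.005 without WT mice 2 and 3 and ranged from -0.005 to 0.114, and in NoSelect from -0.014 to 0.123. For RiboZero against NoSelect with the mouse block, Cyp1a1 was at 0.061 and Fmo1 at -0.04 (edgeR adjusted p 0.015, under the fold for a call). Of the members' other values, 408 kept sign and side of the threshold, 13 passed it, 5 fell short and 7 turned, and without single libraries 316, 5, 15 and 14.

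Over all rows, the 579 calls in RiboZero became 985 in DESeq2, 372 with the block, 255 with mice 3 to 6, 356 without WT mice 2 and 3 and 891 with all 32 libraries. They were 380 to 644 without single libraries, lowest without WT mouse 5. The 694 in PolyA became 1355 in DESeq2, 617 with the block and 465 with mice 3 to 6. They were 990 without WT mice 2 and 3 and 1564 with all 32 libraries. Without single libraries they ran from 442 (without KO mouse 2) to 1066 (without WT mouse 2), with 457 without WT mouse 5. The 372 in NoSelect became 874 in DESeq2 and 103 with the block, and were 148 to 472 without single libraries, at most 210 of them without WT 4, WT 5, WT 6, KO 4 or KO 5.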
